A study of Homo sapiens with 36 samples.

Results

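KO and HET human neurons were compared at day 3 of induction, with 4 libraries of each genotype, 8 of the 36 libraries in the series. The members were taken by their labels alone. All libraries came from H9, a human embryonic stem cell line, and carried a doxycycline-inducible NGN2 gene that turns stem cells into neurons. KO cells were RAI1-/- and HET cells were RAI1+/-, both edited, so the KO minus HET contrast holds no unedited cells. WT libraries (unedited RAI1, 4 at each day) serve below as a reference for levels and for the normal time course. The WT libraries of day 3 also entered the fit, where they add to the gene filter, the scaling and the estimate of spread. Cells were harvested on days 0, 3 and 7 of induction in a Neurobasal-A medium with B27, GDNF, NT3 and CultureOne. The labels call the 4 libraries of a group biological replicates and do not give the number of edited clones per genotype. The p-values therefore measure the spread between these cultures and not between independent clones. RNA was depleted of ribosomal RNA, read in pairs and counted per gene, and the 8 libraries held between 31974827 and 56681064 counts.

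RAI1 encodes a nuclear protein that binds chromatin, and loss of 1 copy causes Smith-Magenis syndrome, a neurodevelopmental disorder. NGN2, the product of NEUROG2, is a basic helix-loop-helix factor that binds E-boxes such as CAGATG and starts neuronal differentiation. It switches on a cascade of later factors, among them the NHLH and EBF families, while dividing cells leave the cell cycle. The comparison of KO with HET sets RAI1-/- cells beside RAI1+/- cells. As the number of edited clones is not given, differences between clones cannot be told apart from those of RAI1 copies.

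RAI1 counts did not separate the genotypes. Its level was 83.0, 110, 59.7 and 33.5 CPM (counts scaled to each library's total over genes) in KO replicates 1 to 4, and 66.6, 90.6, 81.3 and 37.5 CPM in HET replicates 1 to 4. The ranges overlapped, and the log2 difference, KO minus HET, was 0.04 (SE 0.31, adjusted p = 0.97, edgeR quasi-likelihood test with Benjamini-Hochberg adjustment over all genes tested). Counts over a whole gene do not show whether its protein is made, so these levels do not check the genotype labels. RAI1 lies at chr17:17681473-17811453 (GRCh38), where 4 other annotated genes overlap it, and the strand setting of the counting is not given in the sources used here. TCF20 and PHF14, listed as partners of RAI1, had log2 differences of 0.15 and 0.01 and did not pass the test.

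Of 21563 genes tested at day 3, 937 passed an adjusted p of 0.05, which is 4.35% of them. In KO, 597 genes were higher (2.77% of those tested) and 340 lower (1.58%). The difference was at least 1 log2 unit for 439 of the higher and 232 of the lower genes, and at least 2 units for 136 and 58. The 4 KO libraries all lay above the 4 HET libraries for 539 of the higher genes and all below them for 304 of the lower genes. Such a complete separation held for 9.79% of all genes tested, 4.76% with KO above and 5.03% with KO below. The number of genes called moved with single libraries: it was 334 without HET replicate 1, 415 without KO replicate 1, 528 without KO replicate 3, 580 without HET replicate 2 and 620 without KO replicate 2.

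**Figure D1:**
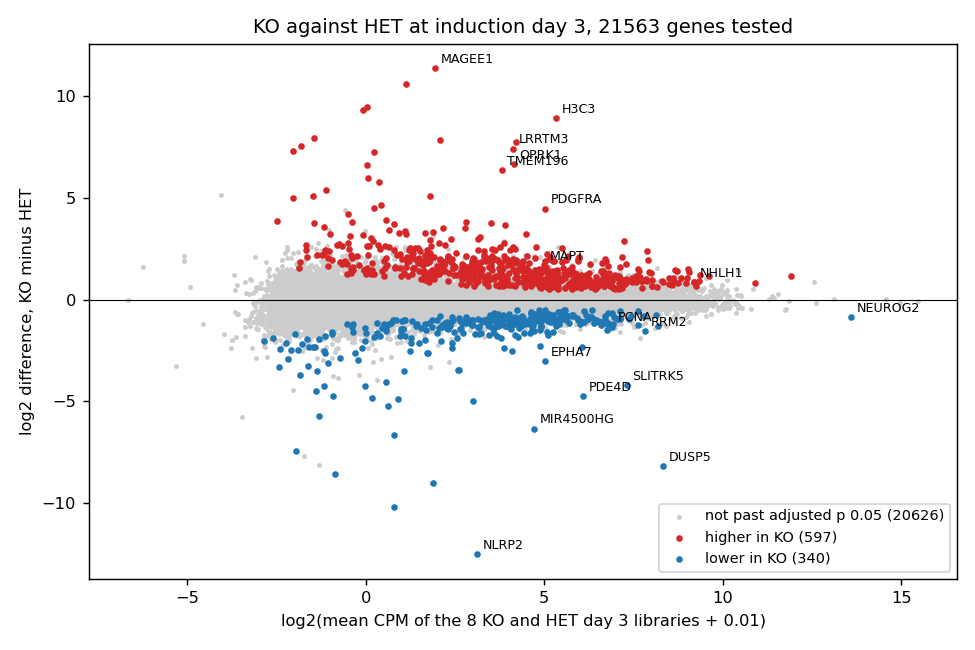
Log2 difference, KO minus HET, of each of the 21563 genes tested at day 3 (vertical) against its mean level over the 8 libraries (horizontal, log2 of CPM + 0.01). Red points are the 597 genes higher in KO and blue points the 340 lower genes at an adjusted p of 0.05. DUSP5 and SLITRK5 combine a high level with a large difference.

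DUSP5 fell from over 400 CPM in each HET library to under 5 CPM in each KO library. It encodes a nuclear phosphatase that inactivates ERK kinases. HET replicates 1 to 4 held 429, 699, 575 and 874 CPM, and KO replicates 1 to 4 held 1.84, 4.19, 1.81 and 1.23 CPM. Every HET library was thus more than 100 times above every KO library, and the log2 difference was -8.19 (SE 0.46, adjusted p = 4.53e-07). WT libraries at day 3 were as low as KO, with a mean of 1.87 ± 0.62 CPM (SD, n = 4). At day 0 the HET and KO means were 31.8 ± 15.1 and 29.1 ± 8.21 CPM, and at day 7 they were 12.3 ± 1.89 and 4.41 ± 0.95 CPM (SD, n = 4 each). DUSP5 was therefore high in HET at day 3 rather than reduced in KO relative to WT. DUSP5-DT, a noncoding transcript annotated as divergent from it, had the same direction, with 1.62, 4.83, 4.53 and 1.06 CPM in HET and 0.10, 0.09, 0.05 and 0.07 CPM in KO (log2 difference -5.22, adjusted p = 0.00043, edgeR).

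SLITRK5 and its neighbour MIR4500HG on chromosome 13 followed the same course. SLITRK5 is a membrane protein of neurons that shapes neurite outgrowth and synapses. HET libraries held 332, 319, 282 and 272 CPM of SLITRK5, KO libraries 20.7, 14.5, 13.8 and 16.0 CPM, and WT libraries 24.6 ± 2.97 CPM (SD, n = 4). The HET libraries agreed closely with one another and stood far above the others, with a log2 difference of -4.21 (SE 0.17, adjusted p = 2.59e-08, edgeR). MIR4500HG, a noncoding host transcript, held 64.3, 69.9, 59.6 and 13.3 CPM in HET and 1.17, 0.56, 0.43 and 0.39 CPM in KO, with HET replicate 4 the lowest of its group. Its log2 difference was -6.34 (SE 0.53, adjusted p = 2.26e-05, edgeR).

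The first SLITRK5 start and the MIR4500HG start in RefSeq (GRCh38.p14) point away from each other and lie 408 bases apart. The 250 bases upstream of SLITRK5, at chr13:87671121-87671370 on the plus strand, are shown because both genes moved together and because the stretch holds 1 E-box of the type NGN2 binds. NHLH1 (chr1:160366821-160367070, plus strand) and NHLH2 (first listed start, chr1:115841127-115841376, minus strand), described below, are shown with it. Capitals mark CAGATG or its reverse complement CATCTG, searched on both strands.
SLITRK5: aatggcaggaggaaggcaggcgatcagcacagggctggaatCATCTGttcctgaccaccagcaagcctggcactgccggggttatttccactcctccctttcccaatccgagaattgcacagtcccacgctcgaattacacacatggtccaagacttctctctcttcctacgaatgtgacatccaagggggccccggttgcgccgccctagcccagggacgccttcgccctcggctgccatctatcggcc
NHLH1: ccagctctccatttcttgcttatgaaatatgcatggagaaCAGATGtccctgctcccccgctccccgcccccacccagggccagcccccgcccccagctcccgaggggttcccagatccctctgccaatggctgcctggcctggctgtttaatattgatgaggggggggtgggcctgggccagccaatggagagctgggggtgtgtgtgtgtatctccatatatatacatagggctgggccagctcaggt
NHLH2: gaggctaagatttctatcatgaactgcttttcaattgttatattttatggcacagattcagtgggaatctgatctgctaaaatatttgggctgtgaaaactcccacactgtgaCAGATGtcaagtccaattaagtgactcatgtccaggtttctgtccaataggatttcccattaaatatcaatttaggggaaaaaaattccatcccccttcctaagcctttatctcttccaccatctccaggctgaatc
The motif starts 209, 210 and 137 bases before the gene start in the 3 stretches. Over 300-base RefSeq windows around starts, it was present in 12.4% of 744 windows of genes higher in KO and 12.5% of 367 windows of genes lower in KO. It was present in 9.18% of 98 windows of the genes named by rule, below the 11% of 18704 windows of all genes tested. Of all 35116 windows 14.7% held it. These shares describe letters and not binding, and the 3 stretches were chosen after the values were seen.

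PDE4D and EPHA7 were also highest in HET at day 3. PDE4D, a phosphodiesterase that breaks down cyclic AMP, held 113, 133, 144 and 138 CPM in HET and 9.20, 6.93, 3.03 and 1.55 CPM in KO, against a WT mean of 0.93 ± 0.48 CPM (SD, n = 4). KO was above WT for PDE4D, by 2.44 log2 units (SE 0.43, adjusted p = 0.0014, edgeR). The HET libraries were all more than 10 times the highest KO library, and the log2 difference was -4.74 (SE 0.45, adjusted p = 7.11e-05, edgeR). EPHA7, an ephrin receptor of growing axons, held 122, 46.5, 27.8 and 37.2 CPM in HET and 6.24, 8.20, 6.21 and 7.33 CPM in KO (log2 difference -3.04, SE 0.39, adjusted p = 0.00085, edgeR). HET replicate 1 was the highest for EPHA7, and the groups did not overlap. PDE4D overlaps 11 annotated genes, most of them noncoding.

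MYL9 and SH3BGR were instead low in KO with HET near WT. MYL9, a regulatory light chain of myosin, held 1.82, 5.35, 6.11 and 6.24 CPM in KO, 28.4, 39.6, 25.7 and 24.9 CPM in HET and 30.7 ± 1.93 CPM in WT (SD, n = 4). The log2 difference, KO minus HET, was -2.55 (SE 0.34, adjusted p = 0.0012, edgeR). SH3BGR held 0.68, 0.65, 1.04 and 1.29 CPM in KO against 8.44, 5.23, 3.65 and 5.69 CPM in HET, and its log2 difference was -2.61 (SE 0.36, adjusted p = 0.0015, edgeR). ECE2, an endothelin-converting enzyme (log2 difference -2.61), and NTN5, of the netrin family (log2 difference -2.36) were also among the protein-coding genes with the largest falls.

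Another group of genes was switched on in KO at day 3 and nearly silent in HET and WT. LRRTM3, a synaptic organizer, held 41.2, 26.0, 21.9 and 50.2 CPM in KO and 0.13, 0.37, 0.25 and 0.06 CPM in HET. OPRK1, the kappa opioid receptor, held 29.9, 40.2, 27.5 and 42.4 CPM in KO and 0.28, 0.29, 0.25 and 0.59 CPM in HET. TMEM196, a membrane protein, held 45.4, 18.1, 22.7 and 25.1 CPM in KO and 0.36, 0.27, 0.49 and 0.19 CPM in HET. For all 3 genes the lowest KO library was more than 20 times the highest HET library. The log2 differences were 7.41 for LRRTM3 (SE 0.55), 6.66 for OPRK1 (SE 0.37) and 6.36 for TMEM196 (SE 0.45), with the largest adjusted p of 7.61e-06 (edgeR). WT means at day 3 were 0.16, 0.07 and 0.10 CPM.

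PDGFRA, the receptor for platelet-derived growth factor A, held 64.0, 62.8, 44.3 and 78.6 CPM in KO and 2.08, 3.29, 2.06 and 3.91 CPM in HET. Its log2 difference was 4.47 (SE 0.35, adjusted p = 1.3e-05, edgeR), and the WT mean of 7.09 ± 2.47 CPM (SD, n = 4) lay between them. PDGFRA marks mesenchymal cells and oligodendrocyte precursors as well as other cells. Of the 13 tested mesenchyme and matrix genes, PDGFRA alone was higher and 0 were lower; the summed level of the 16-gene list was 583 to 966 CPM in KO and 524 to 1425 CPM in HET, and DCN had at most 1 count in any library. ADAMTS5, a matrix protease, held 30.8, 7.46, 8.56 and 6.04 CPM in KO and 0.68, 1.35, 1.43 and 0.19 CPM in HET, with KO replicate 1 well above the rest of its group (log2 difference 3.80, adjusted p = 0.0035, edgeR). TNFAIP2 held 15.2, 58.1, 29.5 and 7.99 CPM in KO and 1.75, 2.89, 2.33 and 1.5 CPM in HET (log2 difference 3.68, adjusted p = 0.003, edgeR).

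**Figure D2:**
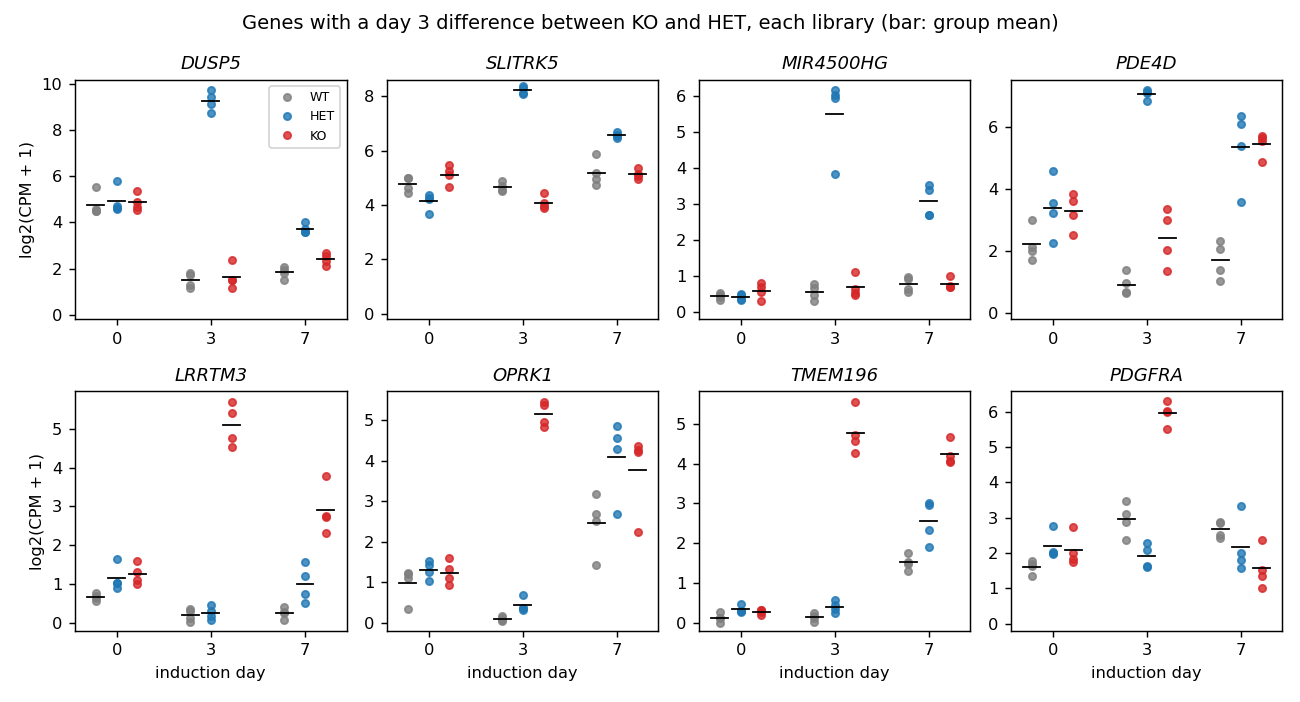
Levels of 8 genes in each library, as log2(CPM + 1), at induction days 0, 3 and 7; points are libraries (4 per genotype and day), coloured by genotype, and bars are group means. In the upper row HET stands above WT and KO at day 3, with DUSP5 at 429 to 874 CPM; in the lower row KO stands above WT and HET at day 3, with PDGFRA at 44.3 to 78.6 CPM.

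Whether the size of these differences changed between days was tested as the change of the KO minus HET difference, over all 36 libraries. A change that passes this test does not mean that the difference was absent on the other days. From day 0 to day 3 this change passed the test for 61 of 24764 genes (0.246%), 35 upward in KO (0.141%) and 26 downward (0.105%). From day 3 to day 7 it passed for 564 genes (2.28%), of which 400 fell in KO relative to HET (1.62%) and 164 rose (0.662%). The balance of directions into day 3 was not stable: 28 genes were upward and 38 downward by library size alone, 14 and 20 without HET replicate 1 of day 3 or KO replicate 3 of day 0, and 31 and 42 without KO replicate 2 of day 3. The totals became 34 and 267 when KO replicate 1 of day 3 was dropped, and 34 and 368 when HET replicate 1 of day 3 was dropped. The first count was also moved by over 1.5 times by day 0 libraries (34 to 40 without HET replicate 1 or 2, or KO replicate 1 or 3, of that day), and the second was 874 without KO replicate 4 of day 3, 900 without HET replicate 3 of day 7 and 298, 319 and 307 without KO replicates 1, 2 and 3 of day 7. DUSP5 moved by -8.03 log2 units into day 3 and by 6.70 out of it (adjusted p = 5.67e-13 and 1.07e-10, edgeR). SLITRK5 moved by -5.22 and 2.74, MIR4500HG by -6.94 and 2.94, PDE4D by -4.42 and 4.63, and EPHA7 by -2.70 and 3.24. Among genes higher in KO, LRRTM3 moved by 7.25 and -4.70, OPRK1 by 6.78 and -6.93, TMEM196 by 6.69 and -4.46, and PDGFRA by 4.62 and -5.40. The adjusted p (edgeR) was at most 0.0198 for each of these 9 genes in both intervals.

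At day 0, 175 of 20437 genes were called (0.856%) and at day 7, 305 of 21714 (1.4%). Of the 937 genes called at day 3, 110 were also called at day 0, which is 11.7% of the day 3 calls and 62.9% of the day 0 calls, and 109 of them had the same sign. With day 7 the overlap was 123 genes, 13.1% of the day 3 calls and 40.3% of the day 7 calls, 120 with the same sign. The median log2 difference of the 597 higher genes was 1.38 at day 3, 0.18 at day 0 and 0.25 at day 7, and that of the 340 lower genes was -1.16, -0.06 and -0.35. The sign at day 0 matched that at day 3 for 422 of 543 higher and 212 of 318 lower genes tested there, and at day 7 for 395 of 581 and 227 of 312. Genes chosen at day 3 had to be large there, so the fall of these medians is a description.

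A small set differed between KO and HET at all 3 days in 1 direction, with 50 genes higher and 33 lower. NLRP2, of the NLR family and expressed in the early embryo, had 0 counts in all 4 KO libraries at day 3 and held 15.5, 22.0, 21.0 and 11 CPM in HET. It was at least 242-fold lower in KO, taking 3 counts per library as the floor. MAGEE1, on the X chromosome and of the MAGE family, was the converse, with 0 counts in HET and WT at day 3 and 8.55, 8.64, 6.67 and 6.92 CPM in KO, at least 102-fold higher. ECHDC3, a mitochondrial enoyl-CoA hydratase family member, had 2 counts in KO and 1145 in HET over 4 libraries, a HET to KO ratio of 581 (95% exact binomial interval of counting, 161 to 4806). WT was also near 0 for ECHDC3, with a mean of 0.01 CPM. PKIB, an inhibitor of protein kinase A, held 19.4, 15.3, 19.1 and 8.26 CPM in HET and 0.94, 0.31, 0.15 and 0.53 CPM in KO.

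Among rises present at all days, RWDD2B held 5.92, 7.15, 7.95 and 5.84 CPM in KO and 0.25, 0.27, 0.18 and 0.09 CPM in HET, while WT was as high as KO at 7.26 CPM. PCDHA6, of the clustered protocadherins that give neurons individual surface codes, held 29.5, 24.1, 19.0 and 12.7 CPM in KO and 1.72, 2.07, 1.36 and 1.00 CPM in HET, with WT at 13.3 CPM. Both genes were therefore low in HET. PCDHA6 shares its last exons with the other alpha protocadherins, so the counts may be split among them. H2BC3, a histone H2B gene, held 9.69, 24.5, 65.0 and 48.0 CPM in KO and 0.10, 0.11, 0.12 and 0.41 CPM in HET. H3C3 was also higher at day 3, with 17.6 to 151 CPM in KO and 0.10 to 0.37 CPM in HET. It was not among the genes called at all 3 days, and its day 7 means were 0.30 CPM in KO and 0 CPM in HET. H4C13 held 2.75, 4.32, 18.0 and 8.41 CPM in KO and at most 0.07 CPM in HET, and was called at days 0 and 3.

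General neuronal genes were higher in KO. The list of 22 pan-neuronal genes, all tested, had 9 members higher (40.9%, against 2.77% over all genes tested) and 0 lower. The median log2 difference was 0.92 against -0.04 over all genes tested, and all 22 fitted differences were positive. MAPT, which encodes the microtubule protein tau, held 61.8, 55.6, 39.6 and 37.7 CPM in KO and 12.9, 19.4, 15.2 and 12.3 CPM in HET (log2 difference 1.70, SE 0.24, adjusted p = 0.0018, edgeR). NEFM, the medium neurofilament, held 482, 269, 451 and 317 CPM in KO and 47.6, 116, 138 and 99.9 CPM in HET (log2 difference 1.93, SE 0.32, adjusted p = 0.0045, edgeR). STMN4, TUBB3, NEFL, NCAM1, RBFOX3, DPYSL3 and UCHL1 also rose. DCX, MAP2, STMN2 and GAP43 had log2 differences of 1.39, 1.15, 1.26 and 1.24 and did not pass the test. The count of 9 became 2 without HET replicate 1, 3 without KO replicate 1 and 5 without KO replicate 3, with a median between 0.85 and 1.19 under every alternative. The same count was 5 in the fit of the 8 KO and HET libraries alone and 0 with limma on log2(TPM + 1). In bulk RNA, more neuronal cells and more neuronal RNA per cell cannot be told apart.

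Proliferation genes were lower in KO. Of 25 tested members, 13 were lower (52%, against 1.58% over all genes tested) and 0 higher. The median log2 difference was -0.97, and all 25 fitted differences were negative. The replication helicase genes MCM2 to MCM6 fell, as did PCNA, the sliding clamp of DNA polymerase, TYMS and RRM2, which make DNA precursors, and CCNA2, CDK1, CDC20, BIRC5 and E2F1. MCM5 held 36.1, 52.4, 40.9 and 38.6 CPM in KO and 77.9, 88.6, 78.8 and 71.6 CPM in HET (log2 difference -0.91, SE 0.14, adjusted p = 0.0028, edgeR). PCNA held 33.8, 73.2, 95.2 and 61.4 CPM in KO and 185, 210, 185 and 112 CPM in HET. RRM2 held 60.1, 152, 139 and 102 CPM in KO and 556, 322, 269 and 226 CPM in HET. The groups did not overlap for any of these 3 genes. MKI67, at -0.97, did not pass. HET was close to WT for this list, with a median HET minus WT difference of -0.06. The count of 13 dropped to 3 on leaving out HET replicate 1, to 5 on leaving out KO replicate 3, and to 6 on leaving out either HET replicate 2 or KO replicate 1.

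**Figure D3:**
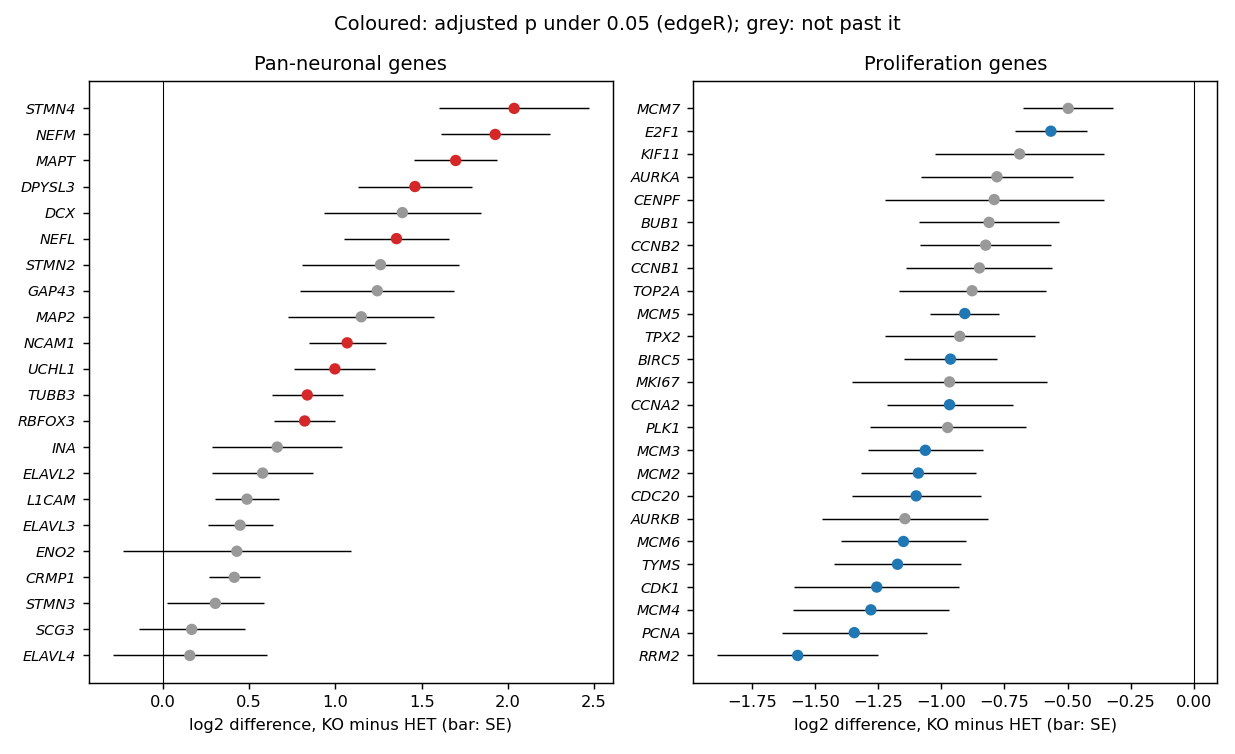
Log2 difference, KO minus HET, with its SE for each of the 22 pan-neuronal genes (left) and the 25 proliferation genes (right). Coloured points passed an adjusted p of 0.05: 9 neuronal genes, all higher in KO, and 13 proliferation genes, all lower; the grey points lie on the same side of 0.

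Factors of the neurogenic cascade moved in both directions. NEUROG2 itself was lower in KO, with 9400, 8080, 7500 and 9750 CPM against 16400, 15800, 14400 and 17500 CPM in HET and a WT mean of 22183 ± 2307 CPM (SD, n = 4). The log2 difference was -0.88 (SE 0.20, adjusted p = 0.028, edgeR), and it was past the threshold in 10 of 19 alternatives. These counts may hold both the resident gene and the induction transgene. At day 0 NEUROG2 was also lower in KO, at 2.02 ± 0.38 CPM against 8.55 ± 3.36 CPM in HET (SD, n = 4 each). NHLH1 held 829, 657, 726 and 797 CPM in KO and 431, 436, 445 and 378 CPM in HET (log2 difference 0.85, adjusted p = 0.012, edgeR). NHLH2 held 365, 218, 300 and 168 CPM in KO and 22.7, 40.1, 78.6 and 3.00 CPM in HET (log2 difference 2.88, adjusted p = 0.041, edgeR). EBF1 rose by 1.38 and EBF3 by 0.98 log2 units. Of 18 tested proneural and neurogenic factors, 4 were thus higher and 1 lower, with a median of 0.64. The called share was 27.8%, against 4.35% over all genes tested. The count of 4 dropped to 1 when HET replicate 1 was left out and to 2 on leaving out HET replicate 2 or any of KO replicates 1, 2 and 3.

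REST, which represses neuronal genes in other cells, was lower in KO, at 11.6, 23.8, 10.4 and 15.7 CPM against 34.7, 33.7, 23.4 and 38.8 CPM in HET (log2 difference -1.10, adjusted p = 0.025, edgeR). This call was lost on leaving out HET replicate 1, HET replicate 4, KO replicate 1 or KO replicate 3, in the fit of the 8 KO and HET libraries alone, with limma on log2(TPM + 1) and against a fold threshold of 1.5. REST stood in the list of neuronal splicing regulators and their controls, where NOVA2, RBFOX3 and CELF3 were higher by 0.89, 0.82 and 0.97. Of the 16 tested members of that list, 25% were called, against 4.35% over all genes tested. On leaving out either HET replicate 1 or KO replicate 1, 0 of these members were higher. In the Notch pathway, the ligand JAG2 was higher (log2 difference 1.3) and the receptor NOTCH2 lower (log2 difference -1.16), with 20 of 22 tested members not past the threshold. JAG2 lost its call in 7 and NOTCH2 in 8 of 19 alternatives, and 0 list members were higher on leaving out HET replicate 1, 2 or 3 or KO replicate 1 or 2, and 0 lower on leaving out HET replicate 1, 2 or 4 or KO replicate 1 or 3. NOTCH2NLC, a close copy of NOTCH2, was also lower (log2 difference -1.37), and the reads of this pair may be shared.

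Guidance molecules and their receptors steer growing axons. Of 45 tested axon guidance genes, 14 were higher and 1, EPHA7, lower, with a median of 0.68. The called share was 33.3%, against 4.35% over all genes tested. The receptors ROBO1, ROBO2 and DCC were higher by 1.19, 2.52 and 1.96 log2 units, and the ROBO ligand SLIT1 by 1.97. ROBO2 held 131, 79.4, 63.1 and 37.1 CPM in KO and 11.6, 15.5, 18.1 and 7.66 CPM in HET. SLIT1 held 11, 47.2, 28.1 and 25.3 CPM in KO and 7.5, 7.91, 6.95 and 6.35 CPM in HET. UNC5C, PLXNA4, NRP1, SEMA3D, SEMA3F, SEMA6A, NTN4, EFNB3, EPHA5 and EPHB6 rose too. The count of 14 dropped to 6 on leaving out HET replicate 1, KO replicate 1 or KO replicate 3, and to 8 on leaving out HET replicate 2, HET replicate 3 or KO replicate 2.

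Synaptic genes rose in smaller numbers, 17.2% of the presynaptic and 20% of the postsynaptic list, against 2.77% over all genes tested. Of 29 tested presynaptic genes 5 were higher and 0 lower (median 0.42), among them the calcium sensor SYT1, the active zone scaffold RIMS1 and the adhesion protein NRXN2. NRXN2 held 50.6, 38.8, 27.5 and 34.9 CPM in KO and 16.4, 15.8, 13.1 and 17.4 CPM in HET (log2 difference 1.26, adjusted p = 0.013, edgeR). The presynaptic count dropped to 2 on leaving out HET replicate 1 or any of KO replicates 1, 2 and 3, and to 3 on leaving out HET replicate 2 or 4. Of 20 tested postsynaptic scaffold genes 4 were higher and 0 lower (median 0.22). NLGN4X, a neuroligin on the X chromosome, held 57.8, 63.1, 50.8 and 35 CPM in KO and 10.9, 19.1, 15.7 and 9.57 CPM in HET (log2 difference 1.90, adjusted p = 0.00031, edgeR), and was called at all 3 days. CAMK2B, a subunit of the calcium/calmodulin kinase, rose by 1.20, DLGAP1 by 1.47 and DLGAP2 by 1.42.

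Among 23 tested transmitter receptors 5 were higher and 1 lower (median 0.47). Called were 26.1% of these receptors, and 33.3% and 30% of the transmitter and neuropeptide lists below. Over all genes tested 4.35% were called. The glutamate receptor genes GRIA4, GRIN1, GRIK3 and GRIK5 were higher by 2.18, 2.43, 1.09 and 1.39 log2 units and the nicotinic receptor gene CHRNA4 by 1.41. GRIA3, an AMPA receptor subunit, went the other way, with 13.3, 10.6, 6.49 and 5.84 CPM in KO and 21.7, 31.4, 29.8 and 15.0 CPM in HET (log2 difference -1.45, adjusted p = 0.0055, edgeR), while WT was at 9.10 CPM. The 5 higher receptors became 2 without HET replicate 1. Of 12 tested genes of transmitter synthesis and transport 4 were higher (median 0.52, which became 1.36 without HET replicate 4 and 0.96 without KO replicate 2). SLC17A6, the vesicular glutamate transporter VGLUT2, held 11.3, 9.71, 13.1 and 3.09 CPM in KO and 0.53, 1.54, 2.29 and 0.31 CPM in HET (log2 difference 2.97, adjusted p = 0.014, edgeR). SLC6A3, the dopamine transporter, rose by 1.44, and TPH2 and DBH rose by 1.55 and 1.86 from means of 0.39 and 0.27 CPM in HET. That count dropped to 1 on leaving out HET replicate 1 and to 2 on leaving out HET replicate 2. Among 10 tested neuropeptide and granin genes SST, ADCYAP1 and VGF were higher, by 3.49, 3.72 and 1.78. SST, somatostatin, held 3.51, 5.44, 18.3 and 5.47 CPM in KO, with replicate 3 apart, and 0.36, 0.56, 1.89 and 0.13 CPM in HET.

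Of 23 tested sodium and calcium channel genes, 2 calcium channel subunits, CACNB1 and CACNA2D1, were higher (1.35 and 1.12, median of the list 0.60). For a list this short, their share of 8.7% is not set apart from the 4.35% called over all genes tested. This count became 1 without any of HET replicates 1, 2 and 4 or KO replicates 1, 2 and 3. It became 4 without KO replicate 4. Of 34 tested potassium and HCN channel genes 5 were higher (14.7%, against 2.77% over all genes tested), with a median of 0.57. HCN2, a pacemaker channel, held 30.6, 22.8, 18.2 and 25.3 CPM in KO and 5.78, 8.36, 6.72 and 8.66 CPM in HET (log2 difference 1.71, adjusted p = 0.0006, edgeR). KCNA2, KCNH8, KCNJ9 and KCNMA1 rose by 1.55, 1.52, 1.97 and 1.24. The count of 5 dropped to 2 on leaving out KO replicate 1, and to 3 on leaving out KO replicate 2 or any of HET replicates 1, 2 and 3. CACNA2D1 overlapped between groups and was past the threshold in 9 of 19 alternatives.

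Of 18 tested genes of sensory and peripheral neurons 5 were higher (27.8%, against 2.77% over all genes tested) and 0 lower. The median of 1.14 became 0.74 without KO replicate 1. The neurotrophin receptor NTRK3, which binds NT3, rose by 1.28 log2 units; it held 147, 109, 77.2 and 103 CPM in KO and 38.3, 47.0, 44.5 and 47.4 CPM in HET. The factor POU4F2 and the receptor RET rose by 2.48 and 1.6, from at most 0.618 CPM of POU4F2 in any HET library. The count of 5 dropped to 1 on leaving out HET replicate 1 or KO replicate 1, and to 2 on leaving out HET replicate 2. Of 11 tested forebrain and POU3F genes POU3F4 was higher, at 77.4, 30.8, 58.4 and 58.7 CPM in KO against 19.2, 5.52, 10.9 and 20.8 CPM in HET, while WT libraries had a mean of 0 CPM. DACH1, in the progenitor list, was higher at 123, 105, 72.2 and 29.9 CPM against 20.5, 24.8, 24.8 and 3.53 CPM, with replicate 4 the lowest in both genotypes. It was past the threshold in 9 of 19 alternatives. For short lists, 1 call in the forebrain list (9.09%) or progenitor list (6.67%) is not set apart from the 4.35% over all genes.

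**Figure D4:**
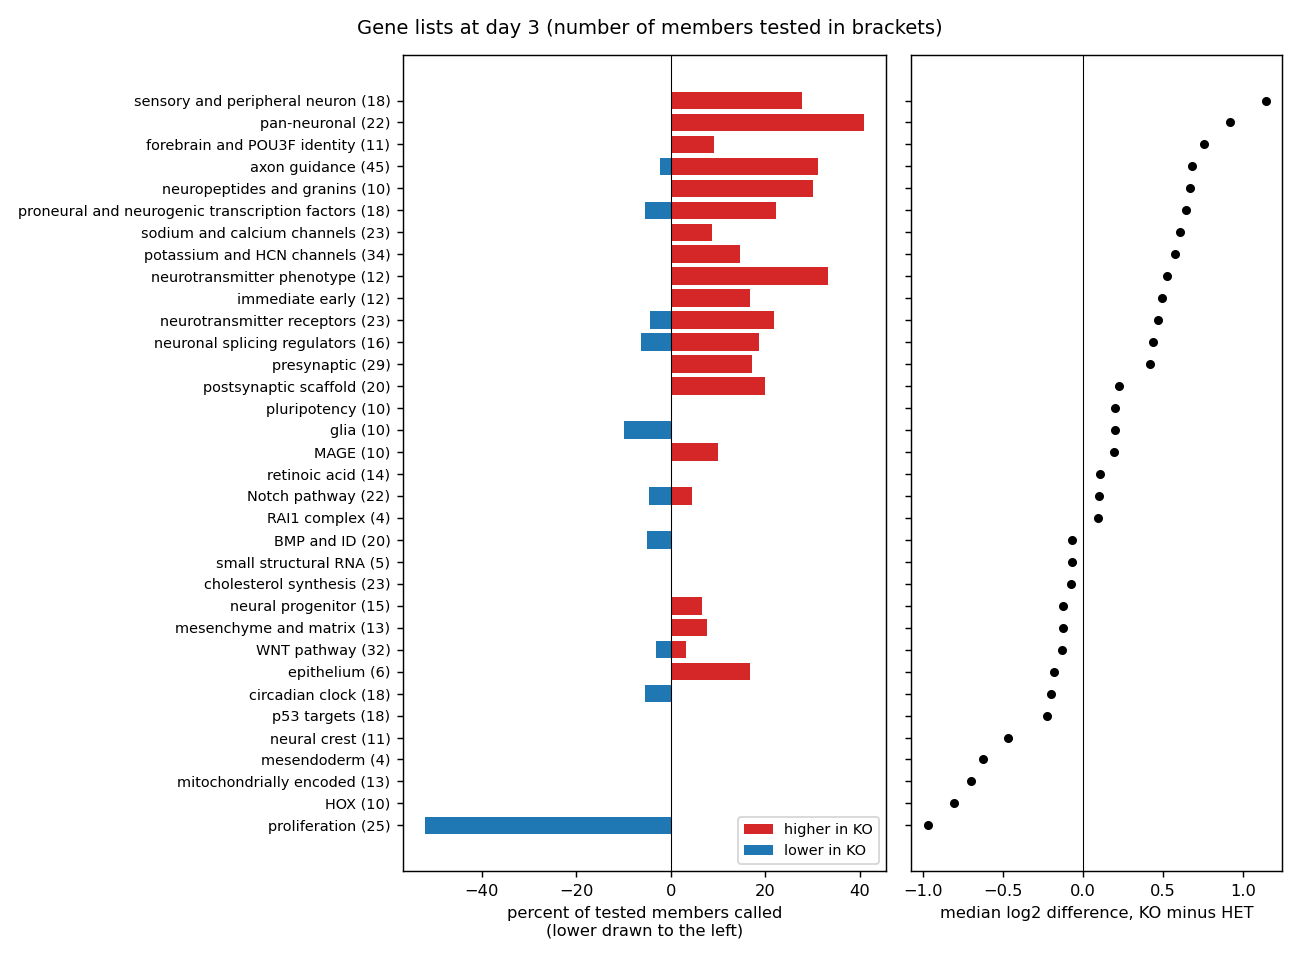
Share of the tested members of each of 34 gene lists that were called (left; higher in KO drawn to the right, lower to the left, with 2.77% and 1.58% over all genes tested) and the median log2 difference, KO minus HET, of the tested members (right). The neuronal lists lie at the top, reaching a median of 1.14 in the sensory list, and the proliferation list lies at the bottom at -0.97.

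Lists of other lineages and of signalling held at most 2 calls each. For lists this short, such counts are not set apart from the 4.35% called over all genes tested. None of 10 tested pluripotency, 11 neural crest, 4 mesendoderm, 14 retinoic acid, 23 cholesterol synthesis, 18 p53 target and 10 HOX genes passed the test in either direction (edgeR). Among mesendoderm genes TBXT and FOXA2 had 0 counts in all 8 libraries. NANOG reached at most 4 counts in any of them. POU5F1 was at 31.0 CPM in HET replicate 4 and at 5.74 CPM or less in the other 7 libraries. Replicate 4 was the highest library for this pluripotency gene in each genotype, with 5.74 CPM in KO and 28.1 CPM in WT, where the other WT libraries held 2.63 to 5.20 CPM. The summed level of the HOX list was 107 CPM in KO replicate 1 and 153 CPM in HET replicate 1 against 8.35 to 17.6 CPM in the other 6 libraries, and its median of -0.80 became 1.02 without HET replicate 1 and -1.47 without KO replicate 1. Of the glial list SOX9 was lower (log2 difference -0.99) and 9 tested members did not pass; AQP4 and S100B had at most 1 count in any library and MOG had 0. CLDN6 was higher in the epithelial list (2.01), where CDH1 had at most 2 counts. BMP4 and TCF7 were lower and WNT9A higher, and of the clock genes PER3 was lower (log2 difference -1.07). Among immediate early genes ARC and DUSP1 were higher, by 1.72 and 1.00. SOX9, BMP4, PER3, TCF7, WNT9A and CLDN6 each lost the call under 8 or more of 19 alternatives. The 13 mitochondrially encoded genes had a median of -0.70 with 0 called, and made up 0.537% to 0.971% of counts in KO and 0.892% to 1.32% in HET.

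The direction of the KO minus HET difference was then set beside the time course of the WT libraries, which are not part of that contrast. Of the 571 genes higher in KO that were tested in WT, 468 (82.0%) rose in WT from day 3 to day 7 and 22 fell. Of 328 genes lower in KO, 264 (80.5%) fell in WT over that interval and 17 rose. Over all genes tested at day 3, 22.9% rose in WT and 24% fell; in the WT fit itself 23.3% of 22268 genes rose and 22.9% fell. From day 0 to day 3 of WT the shares were 38.5% rising and 30.8% falling for the higher genes, and 30.8% and 30.2% for the lower genes, against 32.8% and 26.7% over all genes tested at day 3; in the WT fit itself 31.2% of genes rose and 28.7% fell. Across 20921 genes the KO minus HET difference and the WT change from day 3 to day 7 had a Pearson r of 0.53, and with the WT change from day 0 to day 3 it was -0.04; genes are not independent replicates and no p is given. The lists followed this: pan-neuronal genes had a median WT change of 2.41 from day 3 to day 7 and proliferation genes one of -3.47.

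Each library was placed on a line that runs from the WT day 3 mean (0) to the WT day 7 mean (1), fitted over 3562 genes. The KO libraries stood at 0.60, 0.44, 0.44 and 0.38 and the HET libraries at 0.14, 0.20, 0.25 and 0.13. All 4 KO libraries were further along than all 4 HET libraries, with means of 0.466 ± 0.095 and 0.181 ± 0.056 (SD, n = 4 each) and a difference of 0.286 (two-sided exact permutation p = 0.0286, the smallest this design can give, and 0.0571 adjusted over the 2 axes). On log2(TPM + 1) the difference was 0.237 (exact permutation p = 0.0857). On the line from the WT day 0 mean (0) to the WT day 3 mean (1), fitted over 5138 genes, KO stood at 0.972 ± 0.044 and HET at 0.978 ± 0.052 (SD, n = 4 each), and the difference of -0.006 was smaller than the spread between libraries (exact permutation p = 0.857).

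**Figure D5:**
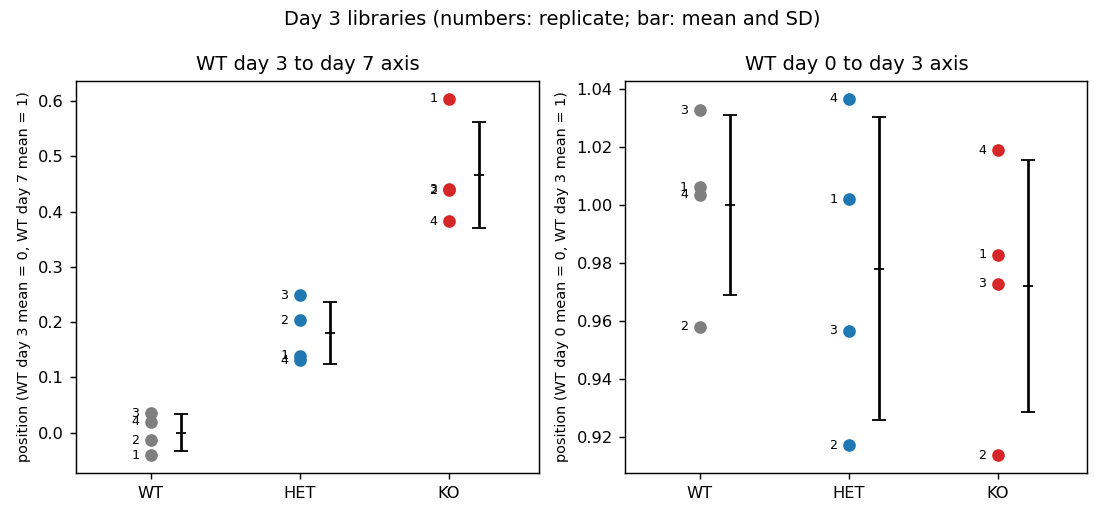
Position of each day 3 library on the line between WT means of days 3 and 7 (left) and of days 0 and 3 (right), with replicate numbers and the mean and SD of each genotype (n = 4). On the left the KO libraries lie between 0.38 and 0.60 and the HET libraries between 0.13 and 0.25; on the right the genotypes overlap.

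For most called genes HET lay between WT and KO in mean level. This order held for 459 of the 597 higher genes and 242 of the 340 lower genes. NEFM is an example, with means of 28.1 CPM in WT, 100 CPM in HET and 380 CPM in KO, as is NHLH2 at 5.05, 36.1 and 263 CPM. DUSP5, SLITRK5, PDE4D and EPHA7, where HET stood apart from the other genotypes, were exceptions to it. WT lay between HET and KO for 126 higher and 74 lower genes, and beyond KO for 12 and 24. The order counts any margin, so genes with WT equal to HET within the spread can also fall in it. Its share over all genes tested was not counted, and a graded effect of RAI1 copies was not tested.

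The content of small structural RNA overlapped between the genotypes. The 5 small structural RNAs of the signal recognition particle, 7SK and RNase complexes (RN7SL1, RN7SL2, RN7SK, RPPH1 and RMRP) took 4.92%, 3.54%, 14.9% and 18.8% of counts in KO and 13.7%, 5.11%, 11.2% and 16.1% in HET. The means were 10.5% ± 7.5 and 11.5% ± 4.7 (SD, n = 4 each; exact permutation p = 0.83). This share varied more within each genotype than between them, and 1766 genes, including all 937, were called when it entered the fit as a covariate. All libraries carry the same batch label. That label does not tell whether same-numbered cultures were handled together, and the correlation of their deviations is given below.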

How the data were processed

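The 8 libraries were RNA-seq libraries of ribosome-depleted total RNA, per the labels' protocols. The authors deposited RSEM expected counts per gene, which are whole numbers in this table, and TPM values; FPKM values were not used. The submitters' processing notes name cutadapt 4.8, STAR 2.7.8a, RSEM 1.3.3 and GRCh38; the annotation and strand setting are not given in the sources used here. Of 62710 genes, 92.9% of identifiers matched GENCODE 29, which gave positions; 4 reporter features were left out of library sizes.

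Genes were filtered (filterByExpr), scaled (TMM) and tested with edgeR 4.0.16 (quasi-likelihood test, R 4.3.3) over the 12 day 3 libraries, and changes between days over all 36. CPM is counts over the library's gene total. Adjusted p-values are Benjamini-Hochberg values over all genes tested, called at 0.05. The 3-count floor and the exact 95% interval cover counting error only. Axes used log2(CPM + 1) and genes of at least 1 CPM that changed by at least 1 log2 unit in WT. In simulated data the day 3 edgeR fit called 23% of planted changes of 1 log2 unit and 70% of those of 2 units. Of its calls there, 7% were false. DESeq2 called 42% and 82%, and 23.9% of its calls were false. The edgeR test of changes between days called 15% and 50%, with 5.8% of calls false. Alternatives were DESeq2 1.42.0, limma 3.58.1 on log2(TPM + 1), other scalings, filters and library sets, a replicate block and leaving out each library.

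Genes were named by rule: RAI1; among called protein-coding genes, the 12 that rose most and the 12 that fell most, with a mean of at least 5 CPM in the higher group and no overlap; 3 of each among other genes; and up to 3 called genes per list. Some genes that meet this rule are not reported here. Further list members, DUSP5-DT, POU5F1 and the X chromosome genes were named after their values were seen. The groups and lists were chosen with earlier results of these data known. Promoter sequences are from RefSeq (GRCh38.p14), which matched 58 of 79 named genes.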

Additional observations from a re-analysis of the deposited data

Results flagged for a closer look

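In 6 of 68 groups of 4 libraries tested (RAI1, the genes named for the size of their difference and 3 library measures, each in KO and in HET), 1 library lay apart from the others by Dixon's criterion; about 1 in 20 groups does so by chance, or 3.4 here. H2BC3 was 0.407 CPM in HET replicate 4 against 0.101 to 0.124 in the rest of its group, and OPRK1 was 0.594 CPM there against 0.247 to 0.292. LINC01806 was 11 CPM in HET replicate 4 against 13.8 to 14.2. H3C3 was 0.372 CPM in HET replicate 2 against 0.101 to 0.125. ADAMTS5 was 30.8 CPM in KO replicate 1 against 6.04 to 8.56, and SST was 18.3 CPM in KO replicate 3 against 3.51 to 5.47.

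The KO minus HET difference itself differed between days, by a test of that difference (edgeR interaction, adjusted p under 0.05), for 61 genes from day 0 to day 3 and for 564 genes from day 3 to day 7. Among named genes the change into day 3 was 7.25 log2 units for LRRTM3, 6.78 for OPRK1, 6.69 for TMEM196, 4.62 for PDGFRA and 3.43 for ADAMTS5. It was -8.03 for DUSP5, -6.94 for MIR4500HG, -5.22 for SLITRK5, -4.42 for PDE4D, -2.70 for EPHA7 and -2.34 for MYL9. The change out of day 3 was -4.70 for LRRTM3, -6.93 for OPRK1, -4.46 for TMEM196, -5.40 for PDGFRA, -5.14 for ADAMTS5 and -4.68 for TNFAIP2. It was 6.70 for DUSP5, 4.63 for PDE4D, 3.24 for EPHA7, 2.94 for MIR4500HG, 2.74 for SLITRK5, 2.65 for SH3BGR and 2.18 for MYL9.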

How the results depend on the processing

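The day 3 count of 937 genes was 1853 with DESeq2, 39 with limma on log2(TPM + 1), 196 against a fold threshold of 1.5, 457 from the 8 KO and HET libraries alone, 1788 with all 36 libraries and 1766 when small structural RNA content entered the fit. Leaving out 1 library gave 334 to 1241. By size factors, library size alone, no filter and no small structural RNAs the count stayed within 1.5 times; the share of higher genes, 63.7%, was 77.2% from the 8 libraries and 56.3% by library size alone, a scaling under which all 937 kept their sign. Same-numbered KO and HET libraries of day 3 had correlated deviations of 0.017, 0.473, 0.217 and 0.594 in replicates 1 to 4. These were -0.015, 0.361, 0.128 and 0.315 at day 0 and -0.035, 0.185, 0.076 and 0.24 at day 7. Replicates 2 and 4 correlated best with their own number in both genotypes at each day. As 1 pair was under 0.1 and the labels give no shared source, the number was not used as a pairing in the main fit. Whether these cultures share a source was not tested. With a replicate block 2739 genes were called, 221 at day 0 and 394 at day 7. At day 3, 3 of 4 KO and 2 of 4 HET libraries correlated best with their own number.

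Counts at day 0 ranged from 154 to 172 without 1 library. At day 7 the count of 305 was 857 with DESeq2 and 146 to 626 without 1 library. The 61 genes changing into day 3 became 40 from the KO and HET libraries alone and 34 to 90 without 1 library, and the 564 changing out of it became 141 and 267 to 900. The difference on the WT day 3 to 7 axis was 0.237 with TPM and 0.240 to 0.314 without 1 library, where 0.0571 is the smallest p possible. On the day 0 to 3 axis it was -0.026 to 0.0135, positive without KO replicate 2 (0.0134), HET replicate 1 (0.0019) or HET replicate 4 (0.0135). The structural RNA difference of -0.986 percentage points was -3.73 to 1.34, positive without KO replicate 1 (0.883), KO replicate 2 (1.34) or HET replicate 4 (0.548). The RAI1 difference turned negative with the block (-0.0025), the covariate (-0.075) and without HET replicate 4 (-0.113), KO replicate 1 (-0.0026) or KO replicate 2 (-0.202), and without 1 library it reached up to 0.285.

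Of 1501 values of the 79 named genes under alternatives, 1256 kept direction and side of the threshold and 240 lost the call, 58 of them with limma on TPM. In that fit 0 pan-neuronal and 0 proliferation genes were called, with medians of 1.19 and -0.73; from the 8 KO and HET libraries alone 5 and 2 were called. The cause of these moves was not tested. Of TPM, the 5 small structural RNAs took 55.0% to 79.9% in the KO libraries and 56.1% to 76.9% in the HET libraries. With 4 libraries per genotype, and CPM under 1 resting on few counts, small differences were not detectable. In simulated data the day 3 fit called only 23% of changes of 1 log2 unit. A gene that did not pass the test is therefore not shown to be unchanged.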

Other observations

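Genes on the X chromosome were frequent among the differences shared by all 3 days. Of the 83 genes called in 1 direction at days 0, 3 and 7, 22 (26.5%) lie on X, where 3.17% of the genes tested at day 3 lie; 10 were higher and 12 lower in KO. Apart from MAGEE1, log2 differences at day 3 ran from 0.808 to 1.90 in size. CASK, a synaptic scaffold kinase, was higher in KO by 1.17, 1.48 and 1.35 at days 0, 3 and 7, and BCOR, a transcriptional corepressor, by 0.81, 1.05 and 0.98. STAG2, a cohesin subunit, was at -1.09, -1.23 and -1.26. PHF6 was at -1.01, -0.83 and -1.03. At day 3, 9.66% of the 683 tested X genes were called, against 2.74% to 6.0% on the autosomes, while the median difference of X genes was 0.00. These counts were made after the values were seen and no test was run.

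Of 64 tested replication-dependent histone genes (symbols H1-1 to H1-6 and the H2AC, H2BC, H3C and H4C series), H4C13, H2BC3 and H3C3 were higher in KO and 0 were lower, a share near the 4.35% called over all genes, while the median difference of all 64 was -1.06. At day 0 the KO means of those 3 genes were 26.2, 39.0 and 119 CPM, and the HET means 0.07, 0.67 and 0.89 CPM. At day 7 the KO means were 0.30, 2.93 and 0.30 CPM. This list was made after the values were seen.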
